A study of Mus musculus with 6 samples.

Results

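The genes described here are 10 neighbours of Ksr2 on mouse chromosome 5 that were chosen because their signal differed between Ksr2 knockout and wild-type fat. They are Wsb2, Rab35, 1110006O24Rik, 2610524H06Rik, 1500011B03Rik, Ankrd13a, Rbm19, Gltp, Alkbh2 and Coro1c, found by gene symbol, and they are 10 of the 18193 genes measured on the arrays. The 10 genes have 16 probe sets that carry a single gene symbol. The probe set with the highest mean over all arrays stands for the gene, and the 6 further ones are given beside it.

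Total RNA of white adipose tissue from 6 C57Bl6 female mice aged 6 months was hybridized to Affymetrix arrays, with the RNA of each mouse on 1 array. Of these mice 3 were wild type (WT) and 3 were KSR2-/-, homozygous for a knockout of Ksr2. The deleted part of Ksr2, the origin of the allele and the fat depot are not given by the labels used here. The mice carry animal numbers from a higher series, with wild types 1 and 2 and knockouts 1 and 2, and a lower series, with wild type 3 and knockout 3.

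KSR2 is a scaffold protein that holds the kinases of the Raf-MEK-ERK cascade together, and mice without it become obese. Genes that lie close together on a chromosome are inherited together, so a targeted allele is passed on with the stretch of chromosome around it. For that reason neighbours of a knocked-out gene are often looked at on their own when knockout and wild-type tissue are compared.

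The proteins encoded in this group have unrelated roles. Wsb2 encodes a substrate receptor of ubiquitin ligases, Rab35 a small GTPase of endosome recycling, Ankrd13a an ankyrin repeat protein that binds ubiquitin, Gltp a carrier of glycolipids, Alkbh2 an enzyme that repairs alkylated DNA, Coro1c an actin-binding coronin and Rbm19 a nucleolar RNA-binding protein needed to make ribosomes. RefSeq lists 1110006O24Rik and 1500011B03Rik as long noncoding RNAs and 2610524H06Rik as protein-coding. In gene order 9 of the 10 lie on the same side of Ksr2, and Rbm19 lies on the other. Wsb2 is the third measured gene from Ksr2, Rab35 and 1110006O24Rik the 14th and 15th on that side, 2610524H06Rik, 1500011B03Rik and Ankrd13a the 39th to 41st, Gltp the 45th, Alkbh2 the 56th and Coro1c the 61st. Rbm19 is the 13th on its side. Places are counts of measured genes and not distances. By distance from Ksr2 over both sides Rbm19 ranks 56th, where Rab35 ranks 24th and 2610524H06Rik 51st.

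The start regions are shown first because 2 pairs of these genes share sequence there. RefSeq promoter windows of GRCm38.p6, from 250 bases before to 50 bases after a start site, were found for all 10 genes (11 windows, Ankrd13a having 2). Rab35 and 1110006O24Rik are read away from each other, and 170 bases separate their start sites, so that their windows share 270 bases. In the Rab35 window, chr5:115631737-115632036 on the plus strand, capitals mark the bases between the start site of 1110006O24Rik, on its left and read leftwards, and that of Rab35, on its right.
Rab35: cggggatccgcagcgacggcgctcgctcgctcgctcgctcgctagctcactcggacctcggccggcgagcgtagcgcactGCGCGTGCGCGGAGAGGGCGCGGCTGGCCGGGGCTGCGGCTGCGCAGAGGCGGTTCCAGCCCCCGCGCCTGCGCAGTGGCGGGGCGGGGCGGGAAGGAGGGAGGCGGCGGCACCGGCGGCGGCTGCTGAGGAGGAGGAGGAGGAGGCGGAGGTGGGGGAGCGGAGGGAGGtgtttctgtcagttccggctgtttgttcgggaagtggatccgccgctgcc

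The neighbours 1500011B03Rik and 2610524H06Rik, which had the largest and the third largest difference of the 10, have near copies of the same sequence in their start windows. Their windows are chr5:114813927-114814226 and chr5:114823419-114823718, both on the minus strand. A local alignment covered 259 positions, of which 235 were identical, 19 were mismatches and 5 lay in gaps, an identity of 90.7%. Over the aligned stretch capitals mark the bases that differ or face a gap.
1500011B03Rik: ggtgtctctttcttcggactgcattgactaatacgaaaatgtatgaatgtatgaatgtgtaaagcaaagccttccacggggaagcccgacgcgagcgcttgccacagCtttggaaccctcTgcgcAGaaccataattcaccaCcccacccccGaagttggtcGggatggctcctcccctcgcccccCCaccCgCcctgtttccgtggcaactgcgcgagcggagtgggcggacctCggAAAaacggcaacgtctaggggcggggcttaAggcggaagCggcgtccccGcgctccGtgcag
2610524H06Rik: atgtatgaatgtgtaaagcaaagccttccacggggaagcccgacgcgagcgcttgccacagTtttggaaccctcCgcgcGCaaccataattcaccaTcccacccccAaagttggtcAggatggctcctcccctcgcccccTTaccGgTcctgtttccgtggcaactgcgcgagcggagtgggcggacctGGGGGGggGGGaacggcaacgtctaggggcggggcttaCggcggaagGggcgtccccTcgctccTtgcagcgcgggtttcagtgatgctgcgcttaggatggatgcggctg

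The longest run shared by these windows was 61 bases, whereas in the 43 other pairs of member windows, leaving out the overlapping pair of Rab35 and 1110006O24Rik, it was 8 to 14 bases. Probe positions were not used here, and whether the probes of either gene lie in copied sequence was not tested. The aligned stretch ran to base 300 of the 1500011B03Rik window and to base 259 of the 2610524H06Rik window, so most of it lies before the start sites. Whether the signals of these neighbours are separate measurements is not known here.

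Wsb2, the gene of this group closest to Ksr2, has a start region rich in GC boxes (GGGCGG, on either strand), which are marked with a single CCAAT box (CCAAT) by capitals in its window at chr5:117357055-117357354 on the plus strand.
Wsb2: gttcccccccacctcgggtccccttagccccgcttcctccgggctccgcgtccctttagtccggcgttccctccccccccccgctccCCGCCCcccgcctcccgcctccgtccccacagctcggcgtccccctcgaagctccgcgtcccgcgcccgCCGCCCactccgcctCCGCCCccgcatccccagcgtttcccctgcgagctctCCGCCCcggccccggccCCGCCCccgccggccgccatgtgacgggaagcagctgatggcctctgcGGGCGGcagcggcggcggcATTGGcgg

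A GC box was found in 10 of the 11 windows of these genes and in 35.7% of all 32851 RefSeq windows of the same length. A CCAAT box stood in 2 (Gltp and Wsb2), against 37.4% of all windows. The ETS core CCGGAAGT was found in 3 (Coro1c, Alkbh2 and Rbm19), against 3.89%. No window of these genes held a TATA box (TATAAA, 13.6% of all windows), a cAMP response element (TGACGTCA, 1.79%) or the AP-1 letters TGANTCA (7.81%). GC content was 60.7% to 79.7% and the number of CpG pairs 13 to 51, where the medians over all windows were 52.7% and 7. The shares over all windows were not matched for GC content, so nothing particular to these genes is read from the motif counts. The 11 windows are not independent. Those of Rab35 and 1110006O24Rik share 270 bases, the 2 of Ankrd13a overlap, and those of 1500011B03Rik and 2610524H06Rik are near copies over their aligned stretch. Both strands were searched, and matches are letters in a window, not sites shown to be bound.

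Signals below are log2 of the deposited intensity. Over all probe sets that carry a single gene symbol the median signal was 5.05 and the 20th percentile 3.12. A difference is KSR2-/- minus WT in log2 units, its standard error (SE) comes from the limma fit of all genes, and each group mean is over 3 mice. Values within a genotype are always listed in the order of mice 1, 2 and 3, numbers that are names only. Because the genes were picked on this very comparison, their differences are given as a description, without a test. All 10 had groups that did not overlap, with 9 higher and 1 lower in KSR2-/-. Over all 18193 genes the groups did not overlap in 16.3%, 7.72% with KSR2-/- higher and 8.56% with it lower. The differences ran from 0.40 to 2.34 in size, with a median size of 0.79 against 0.19 over all genes.

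**Figure D1:**
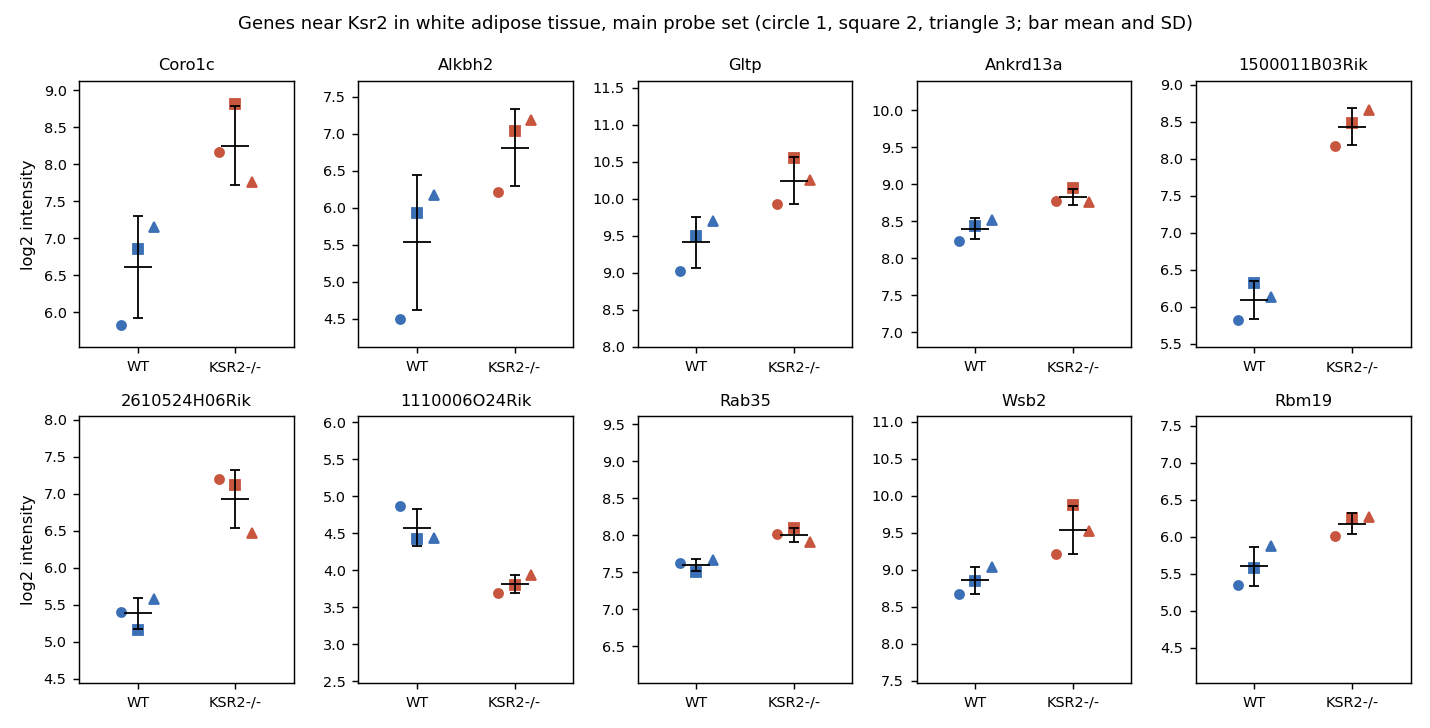
Log2 intensity of the main probe set of each of the 10 genes, in chromosome order, on each array (blue WT, red KSR2-/-; circle, square and triangle are mice 1, 2 and 3 of a genotype; bars are mean and SD, n = 3), with the same height of axis in every panel. The largest separation is that of 1500011B03Rik and the smallest that of Alkbh2.

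The noncoding gene 1500011B03Rik had the largest difference. Its main probe set read 5.82, 6.33 and 6.14 in the wild types and 8.17, 8.48 and 8.66 in the knockouts. The means were 6.10 ± 0.26 and 8.44 ± 0.25 (SD, n = 3 each), differing by 2.34 (SE 0.21) or 5.06-fold. The lowest knockout lay 1.84 above the highest wild type, the widest gap in the group, and knockout 3 was the highest of the knockouts here.

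The second probe set of 1500011B03Rik went the opposite way. It read 6.42, 6.55 and 6.57 in the wild types and 5.78, 5.75 and 6.17 in the knockouts, differing by −0.61 (SE 0.17), again without overlap. RefSeq lists more than a single transcript for this gene, and which of them each probe set reads was not tested.

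Its neighbour 2610524H06Rik read 5.40, 5.16 and 5.58 in the wild types and 7.20, 7.11 and 6.47 in the knockouts. The difference was 1.55 (SE 0.24), a 2.93-fold higher mean in KSR2-/-, and 0.90 separated the groups. Knockouts 1 and 2 lay close together and knockout 3 below them, whereas knockout 3 was the highest knockout in 1500011B03Rik.

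Next in the row stands Ankrd13a, whose protein binds ubiquitin chains on internalized receptors. Its probe set read 8.24, 8.44 and 8.52 in the wild types and 8.77, 8.95 and 8.76 in the knockouts, differing by 0.43 (SE 0.16). The 3 genes of this row therefore differed by 1.55, 2.34 and 0.43. Flanking them, 4930519G04Rik differed by −0.03 (SE 0.15, limma adjusted p = 0.977) at a dim 2.46 and 2.43, and 4930515G01Rik by −0.10 (SE 0.31, adjusted p = 0.949 by limma).

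Rab35 and 1110006O24Rik, which share their start region, went in opposite directions. Rab35 read 7.63, 7.51 and 7.67 in the wild types and 8.02, 8.10 and 7.91 in the knockouts, differing by 0.40 (SE 0.15), and the spread within each genotype was the smallest of the 10 genes (SD 0.08 and 0.10). The noncoding 1110006O24Rik read 4.87, 4.43 and 4.44 in wild types and 3.70, 3.80 and 3.94 in knockouts, differing by −0.76 (SE 0.18). It is the dimmest of the 10 probe sets, with knockout signals between the 20th percentile and the median of all single-gene probe sets. The genes on either side of the pair, Gcn1 and Bicdl1, differed by 0.25 (SE 0.23, limma adjusted p = 0.746) and 0.23 (SE 0.30, limma adjusted p = 0.839), and in both the genotypes overlapped.

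Wsb2 lies beside the replication factor gene Rfc5, close to Ksr2. Its main probe set read 8.68, 8.85 and 9.04 in the wild types and 9.22, 9.87 and 9.53 in the knockouts. The means were 8.86 ± 0.18 and 9.54 ± 0.32 (SD, n = 3 each), differing by 0.68 (SE 0.21) or 1.61-fold. The further probe sets of Wsb2 overlapped between the genotypes. They read 7.23, 6.96 and 6.40 against 7.56, 6.84 and 7.04, differing by 0.28 (SE 0.28), and 5.39, 4.66 and 4.70 against 5.35, 5.24 and 4.78, differing by 0.21 (SE 0.26). Averaged over its 3 probe sets, Wsb2 differed by 0.39. Rfc5 and Vsig10 on either side differed by 0.47 (SE 0.23, limma adjusted p = 0.494) and −0.24 (SE 0.22, limma adjusted p = 0.745).

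Gltp, whose product moves glycolipids between membranes, read 9.02, 9.50 and 9.70 in the wild types and 9.92, 10.55 and 10.25 in the knockouts. The difference was 0.83 (SE 0.24), a 1.78-fold higher mean in KSR2-/-, and 0.23 separated the highest wild type from the lowest knockout. Its probe set carries the suffix that Affymetrix gives to sets matching several transcripts. Trpv4 and Tchp on either side differed by 0.27 (SE 0.21) and 0.07 (SE 0.29), with overlapping genotypes (limma adjusted p = 0.682 and 0.964).

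The DNA repair gene Alkbh2 had the least separated groups. It read 4.49, 5.93 and 6.17 in the wild types and 6.21, 7.03 and 7.18 in the knockouts, differing by 1.28 (SE 0.48) with a gap of 0.04. Wild type 1 stood well below the other wild types, and without that array the difference was 0.76. In RefSeq the Alkbh2 record overlaps that of Ung, a uracil-DNA glycosylase gene, which differed by 0.27 (SE 0.21, limma adjusted p = 0.687). Usp30 on the other side differed by −0.23 (SE 0.21, limma adjusted p = 0.750).

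Coro1c, the member farthest from Ksr2, read 5.83, 6.85 and 7.15 in the wild types and 8.17, 8.82 and 7.76 in the knockouts. The means were 6.61 ± 0.69 and 8.25 ± 0.53 (SD, n = 3 each), differing by 1.64 (SE 0.40) or 3.12-fold, and 0.62 separated the groups. Like that of Gltp, this probe set carries the suffix for sets matching several transcripts. The 3 further probe sets of Coro1c gave other values. A difference of 1.25 (SE 0.55) came from a set reading 4.38, 3.69 and 2.93 in the wild types and 6.01, 4.60 and 4.16 in the knockouts, where the genotypes overlapped. Another, at 4.79, 5.03 and 4.49 against 5.65, 5.03 and 4.16, differed by 0.18 (SE 0.37). The dimmest read 3.61, 3.54 and 3.24 against 2.72, 3.04 and 3.06, lower in KSR2-/- by −0.52 (SE 0.18) without overlap. The mean of the 4 sets differed by 0.64.

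Rbm19, alone on the far side of Ksr2, read 5.34, 5.58 and 5.87 in the wild types and 6.01, 6.25 and 6.26 in the knockouts. The difference was 0.58 (SE 0.19), and 0.15 separated the groups. Its neighbours Tbx5 and Lhx5, genes of developmental transcription factors, differed by −0.48 (SE 0.28, limma adjusted p = 0.571) and −0.20 (SE 0.15, limma adjusted p = 0.670). The genes on either side of Rbm19 thus had differences of the opposite sign.

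**Figure D2:**
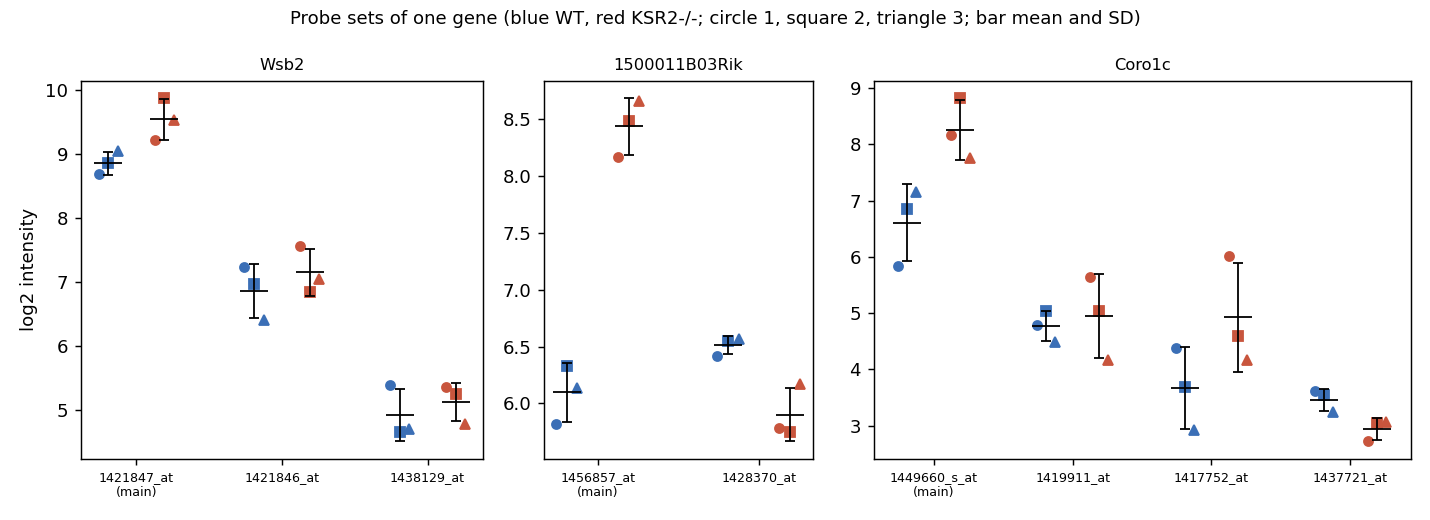
Log2 intensity of every single-gene probe set of Wsb2, 1500011B03Rik and Coro1c on each array (blue WT, red KSR2-/-; circle, square and triangle are mice 1, 2 and 3; bars are mean and SD, n = 3). The main probe set of each gene is higher in KSR2-/-, while the second set of 1500011B03Rik and the dimmest set of Coro1c are lower.

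Of the 3 genes with several probe sets, 2 had sets that did not overlap in opposite directions. Over all genes with more than 1 probe set this was so in 0.832% (75 of 9010), and in 3.18% (47 of 1478) of those whose main probe set did not overlap. Since the genes were chosen on this comparison, nothing is read from the 2 of 3.

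The arrays took similar places in several of the 10 genes. Among the 9 genes higher in KSR2-/-, wild type 1 was the lowest wild type in 7 and wild type 3 the highest in 8. Among the knockouts, knockout 1 was lowest in 5 and knockout 3 in 4 (Rab35, 2610524H06Rik, Ankrd13a and Coro1c). On each array a probe set for the 3' and a probe set for the 5' end of Gapdh report RNA integrity, and their difference was 4.18 log2 in wild type 3 and 0.07 to 1.46 on the others. With this Gapdh difference as a covariate in the fit, the differences of the 10 genes were somewhat larger in size, such as 1.84 for Coro1c, 1.51 for Alkbh2 and 0.42 for Rab35.

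All 10 genes kept their sign within both series of animal numbers. In 9 the difference was larger in the higher series, such as 2.16 against 0.62 for Coro1c, 1.88 against 0.90 for 2610524H06Rik and −0.90 against −0.50 for 1110006O24Rik. In 1500011B03Rik it was larger in the lower series, 2.52 against 2.25. The lower series is a single pair, wild type 3 and knockout 3. Wild type 3 was the highest wild type in 8 of the 9 raised genes and had the Gapdh difference of 4.18. The series and these individual mice cannot be told apart. Since groups that do not overlap fix the sign within each series, the agreement in sign follows from the choice of genes.

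**Figure D3:**
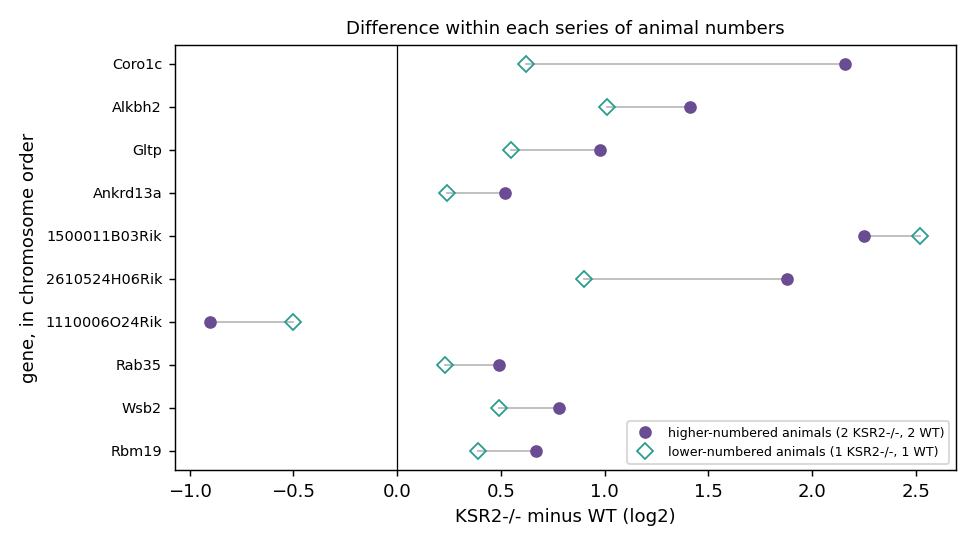
Difference KSR2-/- minus WT (log2) of each gene's main probe set within the higher-numbered animals (filled circles, 2 mice a genotype) and within the lower-numbered animals (open diamonds, 1 mouse a genotype). The distance between the symbols is largest for Coro1c, and 1500011B03Rik alone has the larger difference in the lower-numbered pair.

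The tissue label was checked on markers. Adipocyte markers (6 of 8 measured by a single-gene probe set) had mean signals from 10.64 for Lipe to 13.79 for Fabp4. Their mean log2 signal was 11.69, 12.13 and 12.27 in the wild types and 11.62, 11.88 and 12.60 in the knockouts, with overlap. All 8 macrophage markers had a higher mean in KSR2-/-, 3 of them without overlap, and 0 passed limma. Their mean was 8.50, 8.70 and 8.54 in the wild types and 10.06, 9.97 and 8.74 in the knockouts, and their summed linear intensity was 7886 to 8564 in wild type and 8887 to 21586 in KSR2-/-. The dimmest of them, Itgam, had a mean of 5.68, so none was without signal. The 4 markers of brown or beige adipocytes were lower, 3 without overlap, with a summed intensity of 1147 to 2656 in wild type and 301 to 744 in KSR2-/-. Knockout 3, with the lowest macrophage mean of the knockouts, was also the lowest knockout for Coro1c (7.76 against 8.17 and 8.82), 2610524H06Rik (6.47 against 7.20 and 7.11), Rab35 and Ankrd13a. In the other 5 genes that were higher in KSR2-/-, knockout 1 was the lowest, and for 1110006O24Rik knockout 3 lay nearest to wild type. In whole tissue, more cells of a type and more RNA per cell cannot be told apart.

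Marker means of the other cell types overlapped between the genotypes. Endothelial means were 6.36 to 7.06 in wild type and 6.43 to 6.98 in KSR2-/-, and those of stromal progenitors 9.22 to 10.37 and 9.27 to 10.09. Lymphocyte means were 5.01 to 6.36 and 5.55 to 6.06. Wild type 3 had the highest means for skeletal muscle (7.46, other arrays 4.17 to 5.40) and mammary epithelium (6.32, other arrays 4.08 to 5.22), and knockout 3 the highest for mesothelium (8.72, other arrays 6.74 to 7.74). The part of these cells in the differences of the 10 genes was not tested.

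The targeted gene itself read a low signal in both genotypes. Its probe set gave 4.74, 4.04 and 4.47 in the wild types and 4.47, 4.28 and 4.26 in the knockouts, with overlap. The probes may lie outside the deleted part, so these values do not check the genotype labels.

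To place the 10 genes in their surroundings, every measured gene of the chromosome was ranked by its distance from Ksr2, whatever its signal. Among the 100 nearest genes the groups did not overlap in 17, or 17%, against 16.3% of all genes, which is near the background. In 12 of the 17 KSR2-/- was higher and in 5 lower, where the background is 7.72% higher and 8.56% lower. The 10 described genes supply 9 of those 12 and 1 of those 5. The count was 34 without wild type 1 (31.8% of all genes), 23 without wild type 2 (23.4%) and 29 without wild type 3 (25.7%). It was 32 without knockout 1 (25.6%), 20 without knockout 2 (21%) and 33 without knockout 3 (31.8%). The background rose because fewer arrays overlap less often.

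The median size of the difference was 0.24 over the 100 nearest genes and 0.19 over all genes, and the signed medians were 0.08 and −0.04. None of the 100 passed limma at an adjusted p under 0.05, where 1 of 18193 genes (0.0055%) did. An unadjusted p under 0.05 was reached by 12 of the 100 and by 12.1% of all genes, and by 2 of the 90 that are left without the described genes. Because the described genes were chosen on this comparison, leaving them out lowers that count beforehand, and nothing is read from it. Over the whole chromosome the groups did not overlap in 18.4% of genes, the highest share among the 20 chromosomes with at least 100 measured genes, which ran from 14.8%. Beyond the nearest 100 the share was 18.5%, so it was not higher close to Ksr2.

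**Figure D4:**
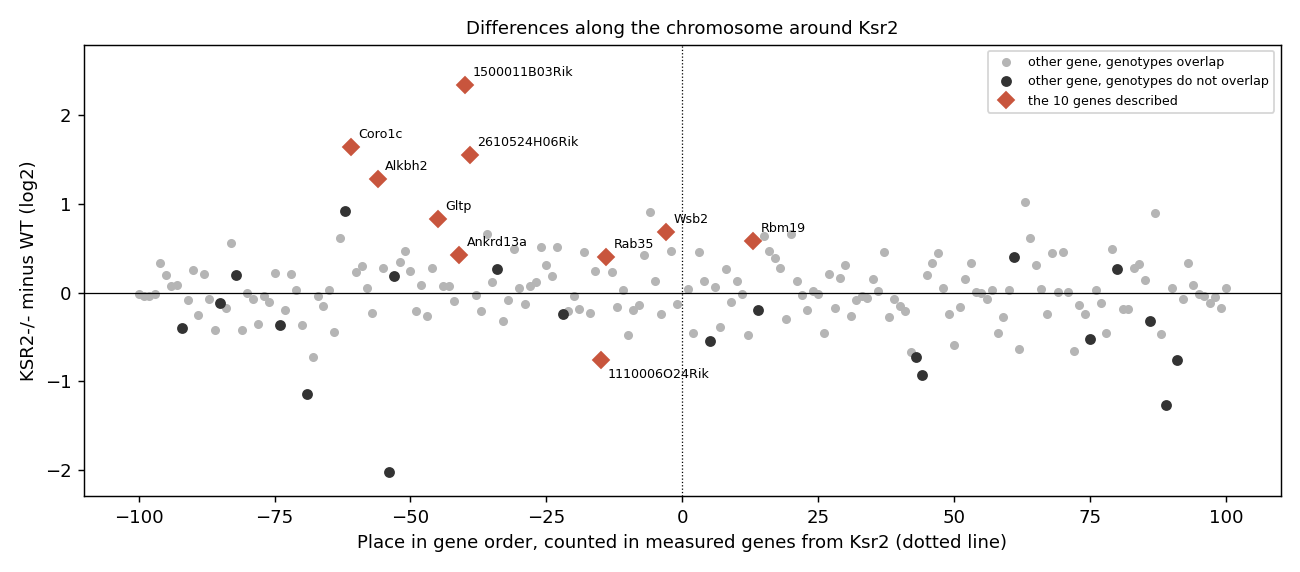
Difference KSR2-/- minus WT (log2) of the measured genes within 100 places of Ksr2 in gene order, with Ksr2 at 0 (dotted line). Diamonds are the 10 described genes, black points are other genes whose genotypes did not overlap and grey points genes whose genotypes overlapped, and most of the diamonds stand left of Ksr2, 39 to 61 places away.

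Between the described genes lay many whose genotypes overlapped. Of the 23 genes between 2610524H06Rik and 1110006O24Rik, 2 had groups that did not overlap, and of the 10 between Rab35 and Wsb2 it was 0. Of the 12 between Ksr2 and Rbm19 it was 1. Over all genes the share was 16.3%, and the ends of these stretches were set by described genes. Counts this small therefore say little about the stretches. The stretch from Selplg, the gene beyond Coro1c, to 2610524H06Rik holds 24 genes, of which 9 had groups that did not overlap, 8 of them with KSR2-/- higher. Its ends were chosen after the values were seen, and 6 of the 9 are described genes. Of 14 genes that stand directly beside a described gene without being one, 2 did not overlap (14.3%), Selplg and Lhx5.

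The 8 measured genes nearest to Ksr2 on each side were named by position alone. Of these 16, the genotypes did not overlap in 2, Wsb2 and Hrk (12.5%, against 16.3% of all genes). By limma 0 passed, and 1 had an unadjusted p under 0.05, against 12.1% of all genes. Pebp1, which encodes the Raf kinase inhibitor protein, read 12.01, 11.88 and 11.91 in the wild types and 12.17, 12.08 and 11.93 in the knockouts, differing by 0.13 (SE 0.15, limma adjusted p = 0.816). The kinase gene Taok3 differed by 0.91 (SE 0.44, limma adjusted p = 0.478), with 1.39 in the higher series of animals and −0.06 in the lower. Nos1, the neuronal nitric oxide synthase gene next to Ksr2, differed by 0.04 (SE 0.16, limma adjusted p = 0.964). The other differences in this set ran from −0.54 for Hrk to 0.47 for Rfc5, apart from Wsb2 itself.

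Apart from the 10 genes, 7 of the 100 nearest had groups that did not overlap. Acacb, the gene of the mitochondrial acetyl-CoA carboxylase, stands 2 places from Alkbh2 and read 8.58, 9.42 and 7.68 in the wild types and 5.87, 6.70 and 7.02 in the knockouts. It differed by −2.03 (SE 0.48, limma adjusted p = 0.240), opposite in sign to Alkbh2. Selplg, the P-selectin ligand gene of leukocytes beside Coro1c, read 7.75, 7.30 and 7.77 against 8.77, 8.90 and 7.91, differing by 0.92 (SE 0.29, limma adjusted p = 0.306) that was 1.31 in the higher series and 0.14 in the lower. Its high arrays, knockouts 1 and 2, were also those with the highest macrophage means, 10.06 and 9.97, and a link between them was not tested. Smaller differences stood for Hrk (−0.54), Cox6a1 (−0.24), Sppl3 (0.26), Lhx5 (−0.20) and Foxn4 (0.19), at limma adjusted p from 0.468 to 0.680.

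Relatives of the encoded proteins, most of them on other chromosomes, were compared in the same fit. Of 51 measured relatives (52 listed) 0 passed limma, 6 had an unadjusted p under 0.05 where the background is 12.1%, and 7 had groups that did not overlap (13.7%, background 16.3%). Among the 6 other coronins, 2 did not overlap. Coro1a, the coronin of leukocytes, read 8.54, 8.62 and 8.74 in the wild types and 9.39, 10.41 and 9.47 in the knockouts, differing by 1.12 (SE 0.28, limma adjusted p = 0.248). Coro7 differed by 0.43 (SE 0.17). The genotypes overlapped for Coro2a, which differed by 0.80 (SE 0.33, limma adjusted p = 0.406), with 1.28 in the higher series and −0.16 in the lower. They also overlapped for Coro1b (0.08), Coro2b (−0.06) and Coro6 (−0.14).

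Of 13 relatives or partners of Rab35, 2 did not overlap. These were Rab1a, at 0.37 (SE 0.16, limma adjusted p = 0.414), and Tbc1d10b, which encodes a GTPase-activating protein for Rab35, at 0.62 (SE 0.23, limma adjusted p = 0.366). Dennd1a and Dennd1b, exchange factors that activate Rab35, differed by 0.07 and 0.26. Wsb1, the paralogue of Wsb2, differed by 0.86 (SE 0.32, limma adjusted p = 0.366), with 1.32 in the higher series and −0.08 in the lower. Of the 4 other parts of cullin 5 ligases listed with Wsb2, all had a lower mean in KSR2-/-, and Rnf7 (−0.23) did not overlap.

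None of the 8 other AlkB homologues, including Fto, had groups that did not overlap, and their differences ran from −0.47 for Alkbh7 to 0.27 for Alkbh1. The 3 other Ankrd13 genes differed by −0.13 to 0.34, with overlap in each. Glycolipid genes listed with Gltp overlapped too, with Cptp at −0.03 and the galactosylceramidase gene Galc at 0.85 (SE 0.47, limma adjusted p = 0.540). Of the 12 nucleolar genes listed with Rbm19, Bop1 (0.49, SE 0.22) was higher and Dkc1 (−0.55, SE 0.21) lower without overlap, and the median of the 12 was 0.20.

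For each of the 10 genes the measured gene with the most similar signal over the 6 arrays was sought by Pearson correlation. The closest were Cyp4b1 for 1500011B03Rik (r = 0.9996), Dcbld2 for Ankrd13a (0.9987), Cryba4 for 1110006O24Rik (0.9985), Gcnt2 for Coro1c (0.9978), Pprc1 for Gltp (0.9977), Glis2 for Rab35 (0.9976), Tln1 for Rbm19 (0.9972), Rcc2 for Alkbh2 (0.9967), Tmem106a for 2610524H06Rik (0.9963) and Ccdc158 for Wsb2 (0.9947). None of these is another of the 10 genes, and Cryba4 and Ccdc158 lie on the same chromosome as Ksr2. With 6 arrays that share 2 genotypes such values are common, and 39 to 266 genes reached r above 0.95 with each of the 10.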

How the data were processed

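The deposited values are linear RMA intensities, with RMA taken from the submitters' processing notes (version not given in the sources used here) and the scale from the values, whose lowest was 2.961 and whose medians per array were 22.37 to 24.2. Log2 was taken of every deposited intensity, with no pseudocount. Of 45101 probe sets, 34945 carried 1 gene symbol in the platform annotation, 932 several, 9160 none listed, and 64 were controls. Symbols were updated by gene identifier to RefSeq of GRCm38.p6 (34741 matched), which also gave gene order. KSR2-/- and WT, grouped by the genotype label, were compared by limma (version 3.58.1, under R 4.3.3; lmFit, eBayes, two-sided, Benjamini-Hochberg over 18193 genes, threshold 0.05, median SE 0.22). Each array was 1 mouse, and their number limits the precision. On simulated data for this comparison of 18193 genes, 20% of 2-fold and 66% of 4-fold changes were recovered with 1 false call.

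The 10 genes and all lists were chosen with earlier results of these data known. Named were the 10 genes, Ksr2, the 8 measured genes nearest to it on each side, the genes beside each of the 10, the other genes of the nearest 100 whose groups did not overlap (up to 8), family relatives and, for each of the 10, the gene most alike over the arrays. Alternatives were renewed quantile normalization, median centring, the mean of all probe sets, the animal number series as a block, Gapdh integrity as a covariate, eBayes with trend, a filter at the median gene mean, other sizes of neighbourhood and leaving out each array.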

Additional observations from a re-analysis of the deposited data

How the results depend on the processing

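Of 120 alternative values for the 10 genes (12 each), 0 had the other sign and 117 stayed within 1 SD of the replicates. Most of these signs were fixed beforehand: leaving out an array cannot turn the sign of groups that do not overlap, the block and the trend leave the difference as it is, and 7 genes have a single probe set. The other 3 values were means over all probe sets, 0.39 for Wsb2, 0.86 for 1500011B03Rik and 0.64 for Coro1c. Among the 6 further probe sets the sign turned in 2, at −0.61 for 1500011B03Rik and −0.52 for Coro1c, and the cause was not tested. Genes past limma numbered 1, and 2 with quantile normalization renewed, 16 with median centring, 0 once the animal number series was a block (2361 at an unadjusted p under 0.05), 6 with the Gapdh covariate, 10 with a trend, 12 with the filter and 0 to 816 with 1 array left out (816 without knockout 3, 9 without wild type 3 and 0 without each of the others, where 1169 to 2243 had an unadjusted p under 0.05). Genes without overlap among the nearest 100 numbered 17, and 20 to 34 with 1 array left out. They were 6 of the nearest 50 (12%) and 30 of the nearest 200 (15%), against 16.3% of all genes. Without the described genes they were 7 of 90 (7.78%), a share lowered beforehand because the genes left out were chosen on this comparison. The median difference size of the nearest 100, 0.24, ran from 0.19 with the mean of all probe sets to 0.31 with the filter. It moved by less than the replicate spread of 0.30, but that spread is larger than 0.24 itself, so little is read from this. Relatives past limma stayed at 0 in 12 alternatives, with 1 to 8 at an unadjusted p under 0.05. No paired analysis was possible because the labels hold no shared replicate numbers.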
